A study of Mus musculus with 4 samples.

Results

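The exocyst is a complex of 8 protein subunits, encoded in the mouse by Exoc1 to Exoc8, that tethers vesicles to the plasma membrane before they fuse with it. In red cell precursors, iron enters by the transferrin cycle. The transferrin receptor (Tfrc, the surface protein CD71) carries iron-loaded transferrin into endosomes, where the iron is released, and then returns to the surface for another round. Exoc6 is tied to this return: the haemoglobin-deficit (hbd) mouse, which carries a mutated Exoc6, recycles transferrin poorly and is anaemic.

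The members are the probe sets that the array annotation assigns to one of these genes alone. There are 8 of them, 1 for each gene, among 23410 annotated probe sets and 19938 named genes, and 0 probe sets name an exocyst gene together with another gene. The set was chosen on a measured value, the higher level of Exoc4 in an earlier look at the same knockout and wild type arrays, and was then filled with its partner subunits. The genotype differences of the subunits are therefore given as description, with no test of their own.

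Expression was measured in bone marrow cells of Parp-2-/- mice (2 arrays) and of WT mice (2 arrays), all on the C57BL/6 strain background. All were sorted as Ter119+CD71+, by surface markers of erythroid precursors. Parp2 encodes a poly(ADP-ribose) polymerase that is activated by DNA breaks. The labels give no age, and they do not say whether the arrays came from separate animals or which part of Parp2 was removed. The last number of each title, 1 or 2, is used as the replicate number, a meaning that the labels do not state. Values are normalised log2 expression, so that a difference of 1 is a doubling. As an amount of RNA, a level of one probe set cannot be set against that of another.

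Parp2 itself read 7.11 and 6.70 in the knockout, against 8.24 and 7.65 in WT. The erythroid genes read here (Tfrc, Slc4a1, Alas2, Epb42, Klf1, Gata1 and Epor, 7 in all) had values from 9.06 to 13.01 over the 4 arrays, against array medians of 5.23 to 5.49. The neutrophil gene S100a8 read 12.87 and 12.67 in the knockout and 13.09 and 13.25 in WT, so that erythroid signal was present together with that of other cells, and these values do not give the share of either. Knockout replicate 2 stood apart, with an interquartile range of 1.98 against 2.62 to 2.94 on the other 3 arrays; its lower quartile (4.70) was the highest and its upper quartile (6.67) the lowest of the 4. Among the 4305 probe sets whose mean level was within the range of the 8 exocyst means (6.48 to 8.30), this array gave the lowest of the 4 values for 58.4%. Most markers of other blood cells also had lower values in the knockout, though limma called 0 of them. Over all genes 41.5% had a difference below 0. Of the 7 erythroid genes 2 were lower and 5 higher, with a median difference of +0.13 and 0 with groups apart. Their log2 summed level was 13.58 and 14.24 on knockout replicates 1 and 2, against 13.01 and 14.34 on WT replicates 1 and 2. Erythroid signal was thus uneven within each genotype and lowest on WT replicate 1. The median difference of these genes was -0.41 without WT replicate 1 and +0.67 without WT replicate 2, so that its sign was not settled. All 12 neutrophil markers were lower in the knockout (median difference -1.21), with a log2 summed level of 14.3 to 14.7 in the knockout and 15.2 to 15.4 in WT. Of the 8 B cell markers measured 7 were lower, with a log2 summed level of 9.07 to 9.36 in the knockout and 10.2 to 10.7 in WT. Of the 7 monocyte and macrophage markers 6 were lower, with a log2 summed level of 11.4 to 11.5 in the knockout and 12.2 to 12.4 in WT. Of the T and NK cell markers 5 of 5 were lower, of the basophil and mast cell markers 5 of 6, and of the megakaryocyte markers 1 of 4. A summed level is weighted to the brightest probe sets of its list. No marker was at 0 on any array. The part of these markers in the values below was not tested, and fewer cells of a type and less RNA per cell cannot be told apart in sorted bulk samples.

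The question was whether Exoc4 differed between the genotypes alone or together with its partners. Exoc4 was the 1 subunit with both knockout arrays above both WT arrays. Exoc2 differed the other way, with both knockout arrays below both WT arrays. The groups overlapped for the other 6 subunits, whose differences lay between -0.29 and +0.49. Over all annotated probe sets the groups did not overlap for 15.6% as higher and for 9.42% as lower in the knockout. In the brightness range of the exocyst these shares were 4.88% and 15.4%. The 1 lower subunit of 8 is near the share in that range, so that nothing is read from Exoc2. The 1 higher subunit is the gene on which the set was chosen. The comparison of all 23410 probe sets by limma, a linear model with moderated variances, called 0% of them at a Benjamini-Hochberg adjusted p under 0.05. At an unadjusted p under 0.05 it gave 2.08% of all probe sets (0.342% higher and 1.73% lower). Nothing is read from that test for the subunits, since the set was chosen on the same contrast.

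**Figure D1:**
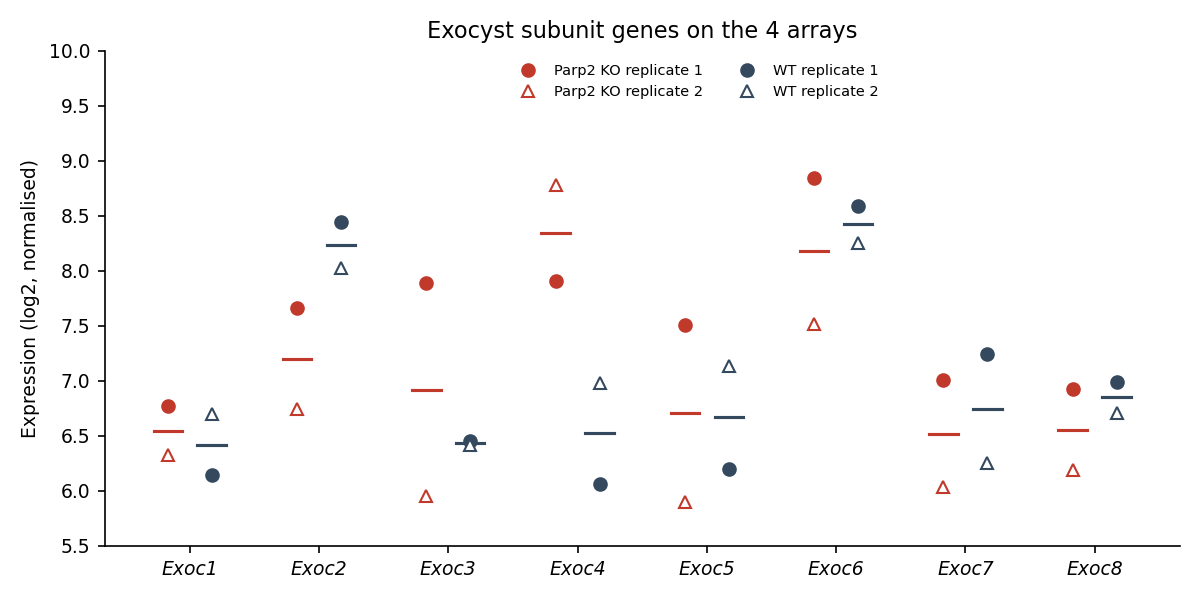
Normalised log2 expression (y axis) of the 8 exocyst subunit genes (x axis) on each array, where red symbols on the left of each pair are Parp2 knockout arrays and dark symbols on the right WT arrays (circles, replicate 1; triangles, replicate 2; lines, means of 2 arrays). Exoc4 is the gene whose 2 knockout values lie above both WT values, and Exoc2 the one whose 2 knockout values lie below both; knockout replicate 2 is the lowest of the 4 arrays for 6 of the 8 genes.

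Exoc1 to Exoc4 encode the subunits that assemble into one arm of the complex, named Sec3, Sec5, Sec6 and Sec8 after the yeast proteins. Exoc4 (Sec8, probe set 10537102, chromosome 6) is a core subunit of that arm. It read 7.90 and 8.78 on knockout replicates 1 and 2, against 6.06 and 6.98 on WT replicates 1 and 2. The lowest knockout value was 0.92 above the highest WT value. Replicate 2 was the higher array within each genotype, by 0.88 in the knockout and 0.92 in WT. The mean was 8.34 ± 0.62 in the knockout and 6.52 ± 0.65 in WT (SD, n = 2 each), a difference of +1.82 ± 0.49 (limma SE), or 3.54-fold. Of 21789 probe sets that name a single gene, 16 had a larger positive difference. Exoc4 was chosen for this difference, so that its high rank is no result. Without knockout replicate 2, the array that stands apart, the difference was +1.38. When the deposited values were quantile normalised it was +1.88.

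Exoc2 (Sec5, probe set 10408490, chromosome 13) is a subunit bound by the Ral GTPases. It read 7.66 and 6.74 in the knockout, against 8.44 and 8.03 in WT. Both knockout values were lower, the nearer one by 0.37. The difference was -1.03 ± 0.44, or 2.05-fold lower in the knockout. It was -0.57 without knockout replicate 2 and -0.85 after quantile normalisation of the deposited values. Of the 21789 single-gene probe sets, 539 had a lower difference.

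Exoc1 (Sec3, probe set 10522606, chromosome 5), which binds phosphoinositides of the plasma membrane, read 6.77 and 6.32 in the knockout and 6.14 and 6.69 in WT. Each genotype held 1 higher and 1 lower array, and the difference was +0.13 ± 0.40. Exoc3 (Sec6, probe set 10410590, chromosome 13), whose yeast counterpart binds SNARE proteins, read 7.89 and 5.95 in the knockout and 6.45 and 6.41 in WT. The knockout arrays lay on either side of both WT arrays, 1.94 apart, while the WT arrays were 0.04 apart. The difference of +0.49 ± 0.63 therefore rested on knockout replicate 1, and it was -0.48 without that array and +1.46 without knockout replicate 2.

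Exoc5 to Exoc8 (Sec10, Sec15, Exo70 and Exo84) form the other arm. Exoc6 (Sec15, probe set 10462822, chromosome 19), the subunit bound by Rab11 on recycling vesicles and the gene altered in the hbd mouse, read 8.84 and 7.51 in the knockout and 8.59 and 8.26 in WT. The knockout held both the highest and the lowest of the 4 values, and the difference was -0.25 ± 0.51. It was +0.42 without knockout replicate 2 and -0.91 without knockout replicate 1. After quantile normalisation of the deposited values it was -0.04, so that these arrays give no direction for Exoc6.

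Exoc5 (Sec10, probe set 10419370), whose yeast counterpart binds that of Exoc6, read 7.51 and 5.90 in the knockout and 6.20 and 7.14 in WT, a difference of +0.04 ± 0.62. The order of the replicates was opposite in the genotypes: replicate 1 was 1.31 higher in the knockout than in WT, and replicate 2 was 1.24 lower. Exoc5 is the 1 exocyst gene on chromosome 14, where Parp2 also lies, with 48 genes between them in the reference order of GRCm38.p6, 35 of them protein-coding. Exoc7 (Exo70, probe set 10393241, chromosome 11), a second subunit that contacts membrane lipids, read 7.0 and 6.03 in the knockout and 7.24 and 6.25 in WT. Replicate 1 was the higher array in both genotypes, by 0.97 in the knockout and 0.99 in WT, and the genotype difference was -0.23 ± 0.51. Exoc8 (Exo84, probe set 10582708, chromosome 8), which also binds Ral GTPases, read 6.93 and 6.18 in the knockout and 6.99 and 6.71 in WT. Its 4 values spanned 0.81, with a difference of -0.29 ± 0.41.

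**Figure D2:**
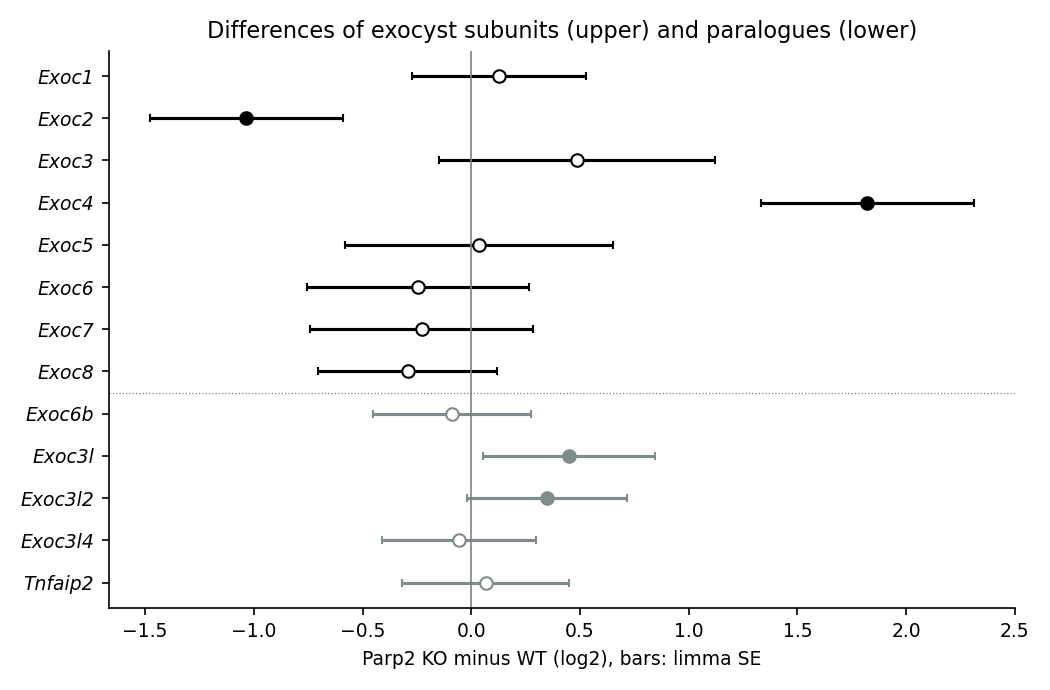
Difference of Parp2 knockout minus WT means (x axis, log2) for the 8 exocyst subunit genes (upper, black) and 5 paralogues (lower, grey), with the limma standard error as bars and 2 arrays per genotype. Filled symbols mark genes whose knockout and WT arrays do not overlap: Exoc4 at +1.82, Exoc2 at -1.03, Exoc3l at +0.45 and Exoc3l2 at +0.35.

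The subunits thus split into 4 with a difference above 0 and 4 below. Their median was -0.10, and that of the 7 partners of Exoc4 was -0.23, against +0.06 over all annotated probe sets. The median of the 8 followed the knockout array used: it was +0.39 without knockout replicate 2 and -0.69 without knockout replicate 1. On knockout replicate 2 all subunits but Exoc4 read lower than on knockout replicate 1 (7 of 8). The genotype difference of Exoc4 relative to the median of its 7 partners on the same array was +1.82. This value holds the difference for which Exoc4 was chosen and is description only. That relative difference was +0.72 without knockout replicate 2 and +2.92 without knockout replicate 1. It moved by more than 1.5 times with either array.

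**Figure D3:**
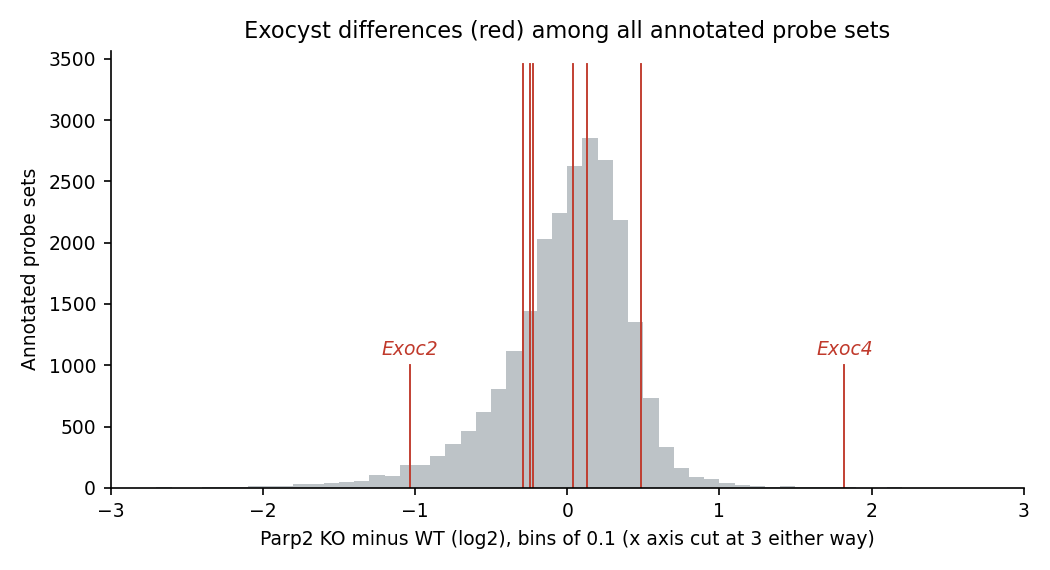
Histogram of the Parp2 knockout minus WT difference (x axis, log2) over the 23410 annotated probe sets (y axis, number of probe sets per bin), with red lines at the 8 exocyst genes. The 6 unlabelled subunits lie between -0.29 and +0.49, inside the bulk of the distribution, while Exoc2 at -1.03 and Exoc4 at +1.82 lie in its lower and upper tail. The place of Exoc4 follows from its choice on this difference.

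Promoter sequence was examined as a property that had no part in choosing the genes. RefSeq promoter windows of GRCm38.p6, from 250 bases before to 50 after an annotated start, were at hand for all 8 genes (12 windows, of which 4 belong to Exoc1 and 2 to Exoc2). They were searched on both strands for 4 motifs: the p53 half-site consensus, GATA-type sites (GATA with A or T before it and A or G after it), CCAAT and the GC box GGGCGG; the motifs share no letters with each other in the windows below. The windows of Exoc4 and of the upstream start of Exoc2 are shown because these are the 2 genes whose groups did not overlap. Capitals mark every match.
Exoc4 (chr6:33248878-33249177, plus strand): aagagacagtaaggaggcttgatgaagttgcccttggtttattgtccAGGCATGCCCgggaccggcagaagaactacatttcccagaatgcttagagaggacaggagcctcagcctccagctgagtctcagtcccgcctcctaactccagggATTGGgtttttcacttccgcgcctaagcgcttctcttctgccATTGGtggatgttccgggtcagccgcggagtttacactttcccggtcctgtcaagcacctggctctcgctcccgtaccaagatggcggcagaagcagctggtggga
Exoc2 (chr13:30973998-30974297, minus strand): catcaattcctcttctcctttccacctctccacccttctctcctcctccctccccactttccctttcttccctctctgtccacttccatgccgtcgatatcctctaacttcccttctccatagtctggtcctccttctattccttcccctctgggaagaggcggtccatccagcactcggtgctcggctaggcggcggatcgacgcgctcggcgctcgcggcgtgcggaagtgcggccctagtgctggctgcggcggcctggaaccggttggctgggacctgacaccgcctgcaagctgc
The Exoc4 window held 1 match to the p53 half-site, AGGCATGCCC, at positions -203 to -194 relative to the start, and 2 CCAAT boxes in reverse orientation. The Exoc2 window held none of the 4 motifs. The p53 half-site was found in 1 of the 8 genes and in 8.36% of all 32851 promoter windows of this length. CCAAT was found in 2 of the 8 genes (Exoc1 and Exoc4) and in 37.4% of all windows, the GC box in 5 genes and in 35.7%, and a GATA-type site in 3 genes and in 29.8%. The counts of genes take a match in any window of a gene, while the percentages are per window, so the units differ. Exoc2 counts for the GATA-type site only through its second window, which is not shown. These are matches of letters, and no binding was measured.

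Paralogues of the subunits were read next. Exoc3l, a relative of Exoc3, read 5.49 and 6.17 in the knockout and 5.37 and 5.39 in WT, and its groups were 0.10 apart. Exoc3l2 read 5.46 and 5.73 in the knockout and 5.42 and 5.08 in WT, with a gap of 0.04. Both were higher without overlap, but on gaps smaller than the spread within a genotype. Over all genes 16.4% were higher without overlap. The groups overlapped for Exoc6b (-0.09), the paralogue of Exoc6, for Exoc3l4 (-0.06) and for Tnfaip2 (+0.07).

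The other genes of the pathway were taken from lists by role. Of 79 listed genes, 77 had a probe set of their own, and limma called 0 of them in either direction at an adjusted p under 0.05. At an unadjusted p under 0.05 there were 0 higher and 2 lower, the SNARE genes Vamp7 and Vti1a, where 0.342% of all annotated probe sets were higher and 1.73% lower; 2 of 77 is near that share. The median difference was -0.23, against +0.08 over all 19938 genes, and it was +0.09 without knockout replicate 2. Groups did not overlap for 15 genes (19.5%) as lower and 5 (6.49%) as higher, against 9.62% and 16.4% of all genes. Over probe sets in the brightness range of the exocyst these shares were 15.4% lower and 4.88% higher. The levels of the 77 genes ran wider than that range, from 3.49 to 12.1. Knockout replicate 2 was the lowest array for 46.8% of the 77 genes and for 25.8% of all genes. In the brightness range of the exocyst it was the lowest for 58.4% of probe sets. The shares over all genes and in that range belong beside the list counts below.

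Receptor and ligand genes showed no separation of the genotypes. Tfrc read 10.6 and 11.4 in the knockout and 10.3 and 11.4 in WT, a difference of +0.13 ± 0.50, with replicate 2 the higher array in each genotype. Its difference was -0.24 without knockout replicate 2 and -0.41 without WT replicate 1, so that its sign was not settled. Tfr2, the second transferrin receptor, differed by -0.01 ± 0.47. The groups overlapped for each of the 4 genes of this list.

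Of the genes for uptake and iron release, Dnm2 was the 1 of 14 endocytosis genes with groups apart. It encodes the dynamin that cuts vesicles from the membrane and read 9.23 and 9.0 in the knockout and 9.38 and 9.66 in WT. The endosomal ferrireductase gene Steap3 (-0.27 ± 0.44) and the iron transporter gene Slc11a2 (-0.33 ± 0.39) had overlapping groups. Of the 8 genes of endosomal iron release, 3 were lower without overlap, where 9.62% of all genes were lower. The 3 were Mcoln1 (-0.83 ± 0.37), an endolysosomal cation channel gene, and the proton pump genes Atp6v0d1 (-0.64 ± 0.36) and Atp6ap1 (-0.29 ± 0.35). Mcoln1 read 7.19 and 7.59 in the knockout and 8.24 and 8.20 in WT, with a gap of 0.61. The 3 genes of iron-dependent mRNA control (Ireb2, Aco1 and Fbxl5) had overlapping groups and a median difference of -0.43.

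The list of GTPases linked to the exocyst and of regulators of such GTPases included 6 of 17 genes lower and 1 higher without overlap. Over all genes 9.62% were lower and 16.4% higher, and in the brightness range of the exocyst 15.4% and 4.88%. Rala, whose product binds Exoc2 and Exoc8, read 6.00 and 4.44 in the knockout and 6.33 and 6.24 in WT. Its difference of -1.07 ± 0.55 became -0.28 without knockout replicate 2, where its value was below the lower quartile of the array (4.70). Ralb, its close relative, read 5.86 and 6.04 in the knockout and 6.88 and 6.55 in WT, a difference of -0.76 ± 0.36 that was -0.86 without knockout replicate 2. Rab11a, the recycling GTPase that binds Exoc6, read 6.98 and 8.15 in the knockout and 8.82 and 8.17 in WT, so that its groups were 0.02 apart. Arf6, another recycling GTPase, differed by -0.05 ± 0.40. The median of the 17 genes was -0.26, but +0.01 without knockout replicate 2.

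In the sorting and recycling list, 3 of 23 genes were lower and 3 higher without overlap (9.62% and 16.4% of all genes). Beside Rab11a these included Rab12 (-0.68 ± 0.43), whose product steers the transferrin receptor to degradation, and the Rab11 effector gene Rab11fip3 (+0.54 ± 0.42). Snx3 (-0.07 ± 0.36) and Vps35 (-0.42 ± 0.45), which act together in sorting the transferrin receptor for return, had overlapping groups. The median of the list was -0.28, and it was +0.11 without knockout replicate 2 and +0.17 without WT replicate 1.

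SNARE genes, whose products fuse vesicles with their target membrane, held the lowest differences of the pathway. Vamp7, a SNARE of late endosomes and lysosomes, read 5.99 and 4.02 in the knockout and 7.47 and 6.82 in WT. The gap was 0.83 and the difference -2.14 ± 0.66, which was -1.16 without knockout replicate 2. Vti1a read 5.98 and 4.52 in the knockout and 6.80 and 6.65 in WT, a difference of -1.48 ± 0.53 that was -0.75 without that array. On knockout replicate 2 the values of Vamp7 and Vti1a were below the lower quartile of the array (4.70), among dim probe sets. Stx16, a SNARE of the trans-Golgi network, was higher without overlap (+0.82 ± 0.41), at 7.06 and 6.81 in the knockout and 5.72 and 6.50 in WT. Of the 10 SNARE genes measured 3 were lower and 1 higher without overlap, against 9.62% and 16.4% of all genes.

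**Figure D4:**
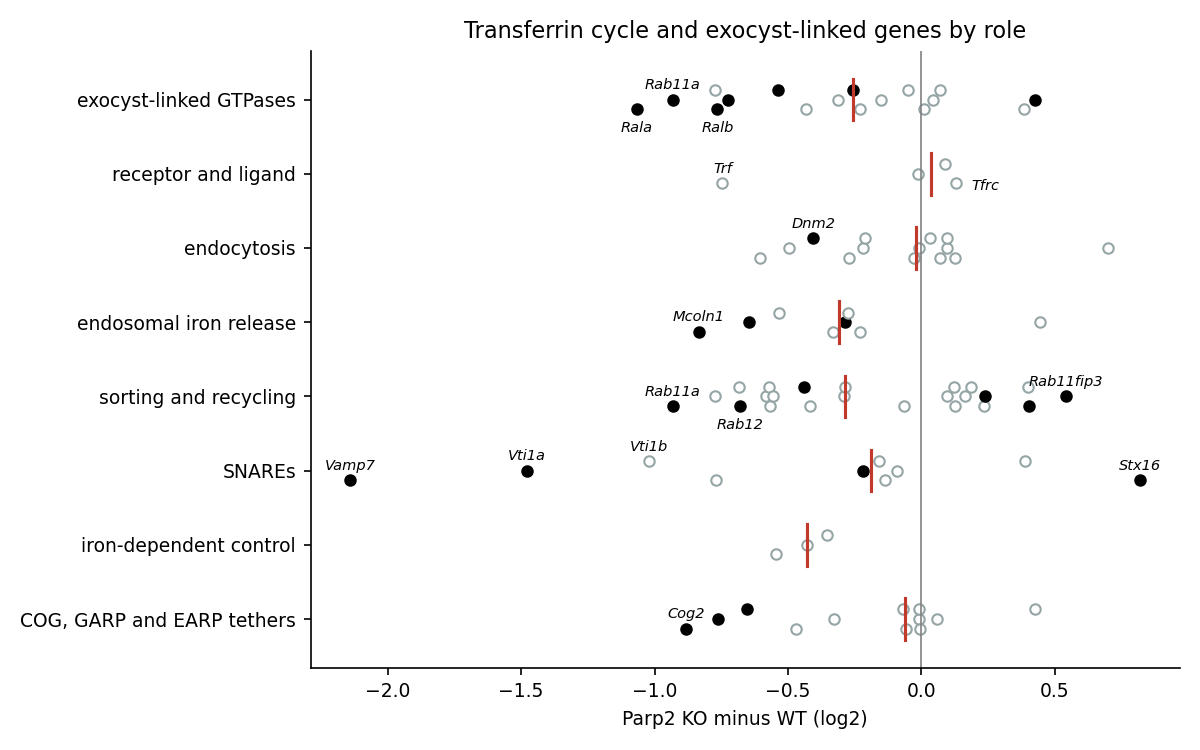
Difference of Parp2 knockout minus WT means (x axis, log2) for genes of the transferrin cycle and genes linked to the exocyst, by role (y axis), with 1 point per gene, black where the genotypes do not overlap and open where they do. Red bars are list medians, and points are spread vertically for legibility. The points furthest left are Vamp7 (-2.14) and Vti1a (-1.48), and the point furthest right is Stx16 (+0.82). The exocyst subunits are not plotted here.

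Tethering complexes of the same structural family, the COG complex of the Golgi and the GARP and EARP complexes of endosomes, gave a set of genes with a similar task. Of 12 measured, 3 were lower and 0 higher without overlap, with a median of -0.06; over all genes 9.62% were lower, and over probe sets in the brightness range of the exocyst 15.4%. The 3 were Cog1 (-0.76 ± 0.40), Cog2 (-0.88 ± 0.35) and Cog3 (-0.65 ± 0.46), which belong to one lobe of COG, as does Cog4 (-0.01). Cog2 read 5.71 and 5.57 in the knockout and 6.61 and 6.43 in WT.

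Profiles over the 4 arrays were compared with that of Exoc4 by the Euclidean distance between values centred on each gene's own mean. The 5 nearest were Ercc5 (distance 0.61), a nucleotide excision repair endonuclease gene, the olfactory receptor gene Olfr767 (0.62), Ccdc141 (0.65), the D-glutamate cyclase gene Dglucy (0.67) and the mitochondrial carrier gene Slc25a36 (0.75). Ercc5 read 6.41 and 7.31 in the knockout and 5.26 and 6.01 in WT. Slc25a36 read 8.80 and 9.84 in the knockout and 6.43 and 7.11 in WT. In all 5, as in Exoc4, knockout replicate 2 was the highest and WT replicate 1 the lowest array. That shared order follows from picking the nearest profiles and is no result. The distances of the exocyst partners ran from 1.95 for Exoc1 to 3.27 for Exoc2. Ranked from the nearest among the 21789 single-gene probe sets, Exoc4 left out, Exoc1 was at 10151 and Exoc2 at 20600. The comparison rests on 4 arrays and on the genotype difference for which Exoc4 was chosen.

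**Figure D5:**
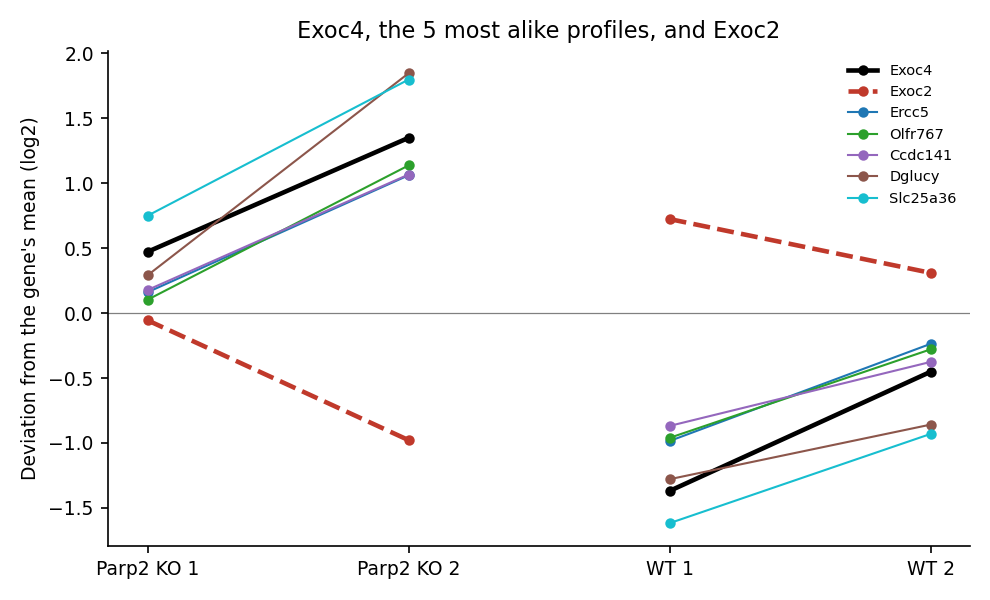
Log2 expression as deviation from each gene's mean over the 4 arrays (y axis) on the 2 Parp2 knockout and 2 WT arrays (x axis), for Exoc4 (thick black), the 5 genes with the nearest profiles (thin lines) and Exoc2 (dashed red). Exoc4 and the 5 genes are highest on knockout replicate 2 and lowest on WT replicate 1, whereas Exoc2 is lowest on knockout replicate 2 and highest on WT replicate 1.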

How the data were processed

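Total RNA (100 ng per sample) of sorted bone marrow erythroid cells was hybridised to 4 Affymetrix whole-transcript arrays, 2 Parp2 knockout and 2 wild type, per the labels. The authors deposited log2 expression values for 35511 probe sets; RMA, limma and R 3.0.2 are named in the submitters' processing notes without their roles, and the log2 values were used as deposited. RMA compresses differences of dim and very bright probe sets. By the platform annotation 21789 probe sets name 1 gene and 1621 several; the other rows name none. Of the 21789, 21698 had a gene ID in a RefSeq table of GRCm38.p6, used for names and gene order.

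limma 3.58.1 under R 4.3.3 fitted knockout minus wild type (functions lmFit and eBayes, no covariate) to the 23410 annotated probe sets, with 2 residual and 4.77 prior degrees of freedom and calls at a Benjamini-Hochberg adjusted p under 0.05. An exact two-sided permutation test of 2 against 2 arrays cannot give a p below 0.333 and was not used. The fit was tested on simulated data. Nothing says that the arrays are separate animals, so p-values cover the spread between these arrays alone, possibly technical, and the number of arrays limits the precision. Numbers in the titles put both wild type arrays before the knockout arrays, so such an order cannot be told apart from genotype.

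In gene lists the probe set with the highest mean represented a gene; 3 listed pathway genes had 2 probe sets, whose differences had the same sign. Named are all exocyst and paralogue genes, Parp2, fixed pathway genes, up to 3 genes per list with the largest non-overlapping difference, and the 5 profiles nearest to Exoc4; marker lists are given as counts. The genes, lists and rules were chosen with earlier results of these data known. Alternatives were a replicate block, leaving out each array, centring, quantile normalisation of the deposited values, and brighter probe sets only. Array weights, trended and robust moderation, and all rows were also run. So were the mean over the probe sets of a gene, and the mean of the partners in place of their median.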

Additional observations from a re-analysis of the deposited data

How the results depend on the processing

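The difference of Exoc4 ranged from +1.36 without WT replicate 1 to +2.28 without WT replicate 2, and that of Exoc2 from -1.50 without knockout replicate 1 to -0.57 without knockout replicate 2. Their signs with 1 array left out are fixed by groups that do not overlap and are no sign of stability. Centring gave +1.75 and -1.11, and quantile normalisation of the deposited values +1.88 and -0.85. The replicate block, the other moderation, the choice of rows and the array weights, equal within each genotype, leave a difference as it was. The other 6 subunits had differences of both signs over the alternatives. Relative to the median of its partners Exoc4 lay between +0.72 and +2.92. Subunits with non-overlapping groups numbered 2, and 2 to 7 with 1 array left out, where 1 array alone makes a group: 2 without WT replicate 1, 5 without WT replicate 2, 7 without knockout replicate 1 and 6 without knockout replicate 2. The count of all probe sets past limma's test, 0 as reported, was 0 to 62 with 1 array left out and 8 with trended and robust moderation.

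The titles end in 1 or 2 in both genotypes, read here as the replicate number. No label says what that number marks or that it pairs arrays. Over all annotated probe sets, replicate 2 minus replicate 1 in the knockout and in WT had a correlation of 0.468. A block for the replicate number let 274 probe sets (1.17%) pass, including 1 subunit, Exoc4, and 2 pathway genes, Vamp7 and Vti1a. That fit has 1 residual degree of freedom, and Exoc4 was chosen on the same difference, so that its call is no evidence. Centring, quantile normalisation, the brighter probe sets, array weights, trended and robust moderation and all rows gave 0 called subunits and pathway genes. The mean over the probe sets of a gene also gave 0 for the pathway genes, for which alone it was run. Signal over background is not known for these values, and with 2 arrays per genotype a difference that misses the test is not shown to be absent.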
